A study of Xenopus laevis with 20 samples.

Results

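The 5 arrays described here held RNA of uninjected embryos of Xenopus laevis, the African clawed frog, at stage 13, the early neurula. They are the arrays whose titles call them control and number them 1 to 5, which is 5 of the 20 arrays of the series and 5 of its 10 arrays labelled uninjected. The embryos were siblings of embryos injected in a study of Xrx1 (now rax), a homeobox transcription factor gene of the eye field, and were grown in 0.1X Marc's Modified Ringer with 4% Ficoll-400. They carried no transgene, no injected RNA and no morpholino, per the labels, and the injected embryos enter no comparison here. Each array held a pool of RNA from 3 whole embryos, per the labels; the series' own design text instead has each embryo extracted singly. The pools are called pools 1 to 5. Nothing in the labels says whether different pools came from different parents, so the spread given below is the spread between these samples, which may be technical.

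At stage 13 gastrulation is ending, the neural plate is open, and the eye field is still a continuous patch at the front of that plate. The cement gland, a mucus-secreting organ in front of the plate, and the muscle-forming mesoderm beside the notochord are being laid down, while most organs have not yet differentiated. Messenger RNA left over from the egg is still present beside RNA made by the embryo. Xenopus laevis is an allotetraploid, and many of its genes exist as a pair of homeologs, marked .L and .S after the longer and shorter chromosome of each pair.

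Values are on the deposited log2 scale, where a difference of 1 is 2-fold. The array has 15491 probe sets other than its own controls, and the median of their means over the pools was 5.70. A probe set was called detected where its mean was above 4. Control probe sets for reporter sequences foreign to the frog, among them green fluorescent protein, the tracer of the injected embryos, served as a guide to background. The 3 of them read between 2.19 and 3.56 over the 5 pools, all below 4. Other probe sets read lower still, down to 0.749. A level called at the floor below lies within or under the range of these 3 controls. Above the threshold stood 9984 probe sets, or 64.5%, and 9397 were above it in all 5 pools. In 4989 probe sets no pool was above 4, and in 1105 (7.13%) some pools were above and others not. Probe sets differ in how brightly they bind the same amount of RNA, so an order by brightness is no order by number of RNA molecules. In whole embryos, fewer cells of a type and less RNA per cell cannot be told apart.

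**Figure D1:**
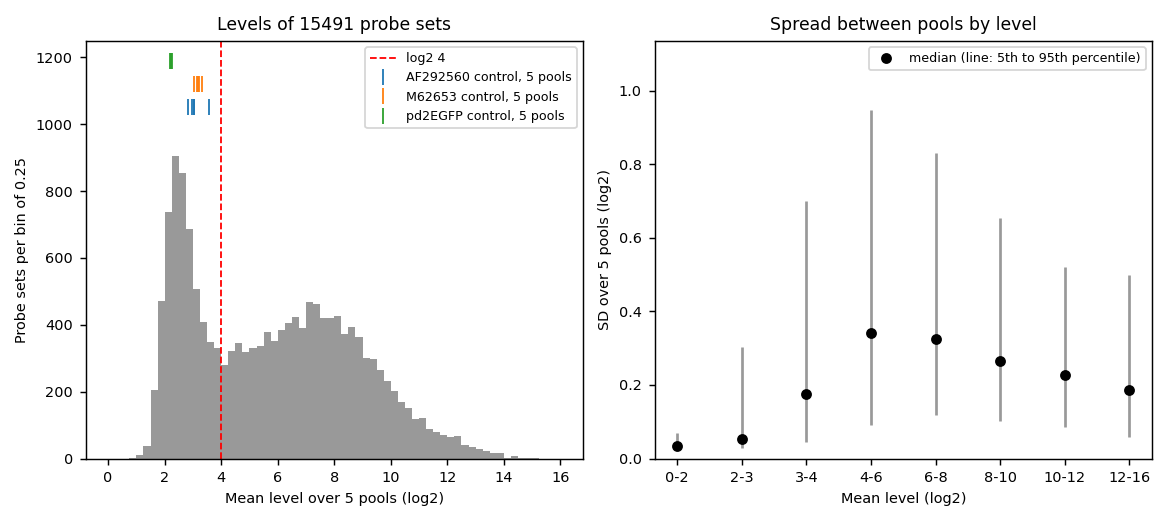
Left, the number of probe sets (vertical axis) at each mean level over the 5 pools (horizontal axis, log2), with the threshold at 4 as a dashed line and the readings of the 3 reporter controls in each pool as ticks above, all between 2.19 and 3.56. Right, the SD over the 5 pools (log2) by class of mean level: points are medians, lines run from the 5th to the 95th percentile, and the median was 0.343 between 4 and 6 and 0.185 above 12.

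Of 7279 genes named by 1 informative symbol, each taken at its brightest probe set, 5319 (73.1%) were detected. The brightest signal belonged to krt70.S, a type of keratin gene of the embryonic surface, at 15.09 ± 0.06 (SD, n = 5 pools). Next came eef1a1.S, a translation elongation factor, at 14.89 ± 0.11, and cirbp.S, a cold-inducible RNA-binding protein, at 14.62 ± 0.02. The 25 brightest genes went down to has1.S, a hyaluronan synthase, at 13.54 ± 0.23. They were mostly genes of chromatin, RNA processing and protein handling: hmgb2.S and hmgb2.L (14.49 and 14.40) and hmgb3.S and hmgb3.L (13.95 and 13.81) encode chromosomal high mobility group proteins, and h2az1.L (14.47) and h3-5.L (13.60) encode histone variants. The RNA-binding group held srsf2.L (14.39), hnrnpa1.S (14.28), hnrnpa1.L (14.26), cirbp.L (14.26), hnrnpdl.S (13.69) and hnrnpu.S (13.67). The probe sets of hmgb3.S and hmgb3.L share a name apart from its ending, and those of hnrnpa1.S and hnrnpa1.L begin with the same number. Whether such probe sets tell the copies apart was not tested. Chaperones were present with hspa8.L (13.99) and hspa1l.S (13.88), the cytoskeleton with actb.L (14.03) and krt7.L (13.69), the ribosome with rps29.S (13.70), and the mitochondrial carriers with slc25a5.L (13.74). The arginine methyltransferase gene prmt1.S (13.67) and ptmap12.L (13.75) were also among the 25.

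Other probe sets of the same gene could be far dimmer. Those of krt70.S went down to 8.66, those of actb.L to 7.17, and the other probe set of krt7.L read 2.16, below the threshold. Among the 25 brightest genes, eef1a1o.S (13.83), the oocyte form of the elongation factor, had the widest range over pools, with 12.96, 14.29, 14.10, 13.48 and 14.31 in pools 1 to 5. Pools 1 and 4 were the low ones. In contrast, the eef1a1.S readings of 14.77, 14.89, 14.99, 14.78 and 14.99 stayed within a range of 0.22.

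The spread between pools was small for most detected probe sets. Their median SD was 0.294, with 0.0984 and 0.809 at the 5th and 95th percentiles, and the median range from the lowest to the highest pool was 0.726, a ratio of 1.65. The range passed 1 in 2902 detected probe sets, or 29.1%, and it passed 2 (a 4-fold difference) in 438, or 4.39%. In 33 it passed 4. With pools 1 and 4 and pools 2 and 5 averaged, which were much alike, 1793 passed 1; averaging can only narrow a range. The spread was least at the bottom of the scale, with a median SD of 0.0345 for means up to 2. Such means lie under the lowest reading of the reporter controls, 2.19, so this SD describes background readings. The spread was widest for means between 4 and 6, where 40.2% of probe sets ranged over more than 1, and it narrowed again towards the top.

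The 5 pools were not equally unlike each other. Across the detected probe sets, pools 1 and 4 and pools 2 and 5 each correlated at 0.986 (Pearson's r across probe sets, which are not independent replicates), and the other 8 pairs at 0.944 to 0.958. Only 156 detected probe sets differed by over 1 between pools 1 and 4, and 153 between pools 2 and 5, against 881 to 1309 for the other pairs. Pool 3 had no near partner. The probe sets for both ends of 4 actin and Gapd control transcripts moved with this pattern. The 3′ minus the 5′ reading had a mean of 3.00, 0.32, 1.29, 2.96 and 0.63 in pools 1 to 5. These means mix unlike transcripts. Gapd read 3.09 to 4.11 over the pools, and the actin control bAct ran from -2.23 in pool 2 to 0.92 in pool 4. In each of the 4 transcripts pools 1 and 4 read highest, pool 3 next, and pools 5 and 2 lowest. A 3′ excess is commonly read as a sign of shortened RNA or incomplete copying, and its part in the differences between pools was not tested. The mean of 24 probe sets for bacterial spike-in transcripts was 8.35, 8.18, 8.52, 9.06 and 9.06 in pools 1 to 5, which sets pools 4 and 5 apart and not the pairs. The labels do not say that any pools share embryos or RNA, so all 5 are counted, and results that change when the near pairs are averaged are given at the end.

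**Figure D2:**
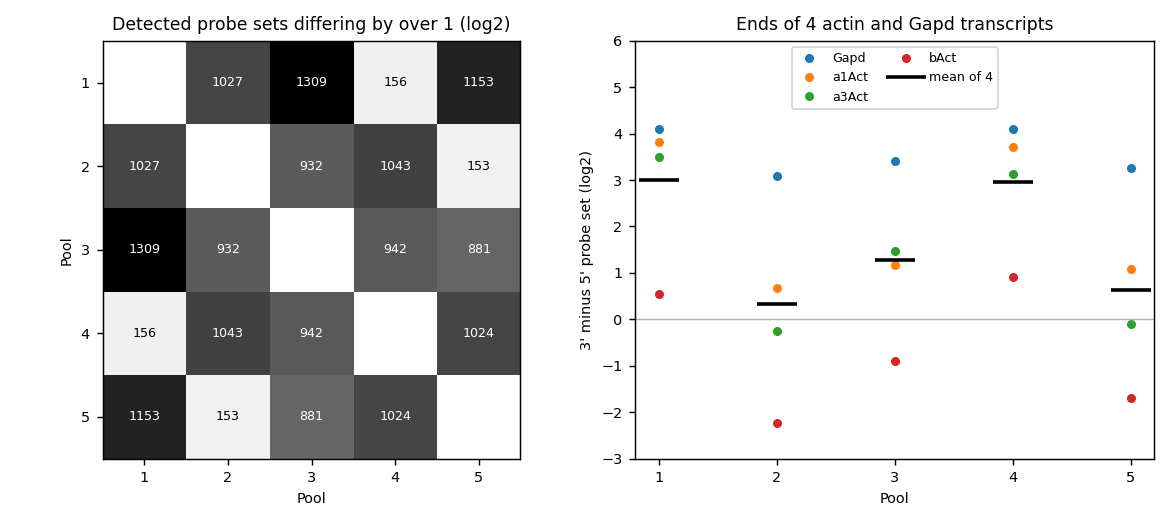
Left, the number of detected probe sets whose levels differ by over 1 (log2) between each pair of the 5 pools; darker squares hold more, and the pairs 1 with 4 (156) and 2 with 5 (153) stand apart from the rest (881 to 1309). Right, the 3′ minus the 5′ probe set (log2) of 4 control transcripts in each pool, with bars at their means, which were near 3 in pools 1 and 4 and 0.32 to 1.29 in the other pools.

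The same pools recurred in most of the probe sets whose levels differed most. There are 15 ways to set 1 or 2 pools apart from the rest at the widest gap, and 3 of them (pools 1 and 4, pools 2 and 5, or pool 3 alone) accounted for 325 of the 438 probe sets with a range over 2, or 74.2%. They accounted for 61.9% of those with a range over 1 and for 42.5% of all detected probe sets. The grouping of the pools was seen in these same probe sets, so the shares describe it and are no separate evidence for it.

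The detected gene with the largest SD was tspan8.L, which encodes a tetraspanin of the cell membrane. It read 9.54, 10.76 and 10.07 in pools 2, 3 and 5, and 2.85 and 2.62 in pools 1 and 4, so it was at the floor in both of those. Transferrin, tf.L, the iron carrier of blood plasma, followed the same pools, with 3.00, 7.79, 8.43, 3.19 and 7.76 in pools 1 to 5. Its homeolog tf.S, named after its values were seen, stayed between 3.56 and 3.81, below the threshold in every pool. A different pair was low for eps8l3.S, an adaptor protein gene related to Eps8, with 9.14, 9.59 and 10.06 in pools 1, 3 and 4, and 3.50 and 3.45 in pools 2 and 5. These genes were each near or below the threshold in one near pair and bright in the remaining pools.

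Of the 25 genes with the largest SD, 10 had pools 1 and 4 set apart (9 with those pools lower), 8 had pools 2 and 5 set apart (5 with those pools lower), 6 had pool 3 set apart, and gs17.L had pool 4 alone. In 14 of them the lowest pool was at or below 4. With pools 1 and 4 lower stood dck.2.L, a deoxycytidine kinase (3.26 and 3.57 in those pools, 6.49 to 6.53 in the others), sqor.S, a mitochondrial sulfide oxidase (3.73 and 5.18, others 7.09 to 7.63), and leo1.S, a subunit of the Paf1 transcription elongation complex (3.76 and 4.97, others 6.89 to 7.35). The alpha-2-macroglobulin-like gene a2ml1.L read 4.39 and 4.42 in them, against 6.66 to 7.52 in the others. The gene api5.L, an apoptosis inhibitor, and the nuclear export receptor gene xpo4.L were also lower there. With pools 1 and 4 higher stood fermt1.L, a kindlin that activates integrins, with 6.39 and 6.66, against 3.60 to 3.86.

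With pools 2 and 5 set apart, the histone H2B gene h2bc11.S read 10.76 and 11.28 in them and 6.0 to 8.29 in the other pools. The glutathione transferase gene gsta1.L read 6.56 and 6.40 in them and 2.87 to 3.07 elsewhere, and without pool 2 or pool 5 its mean was 3.85 or 3.89, below the threshold. The lower ones included ugt3a2.L, a glycosyltransferase of the UGT family, with 2.35 and 2.29 against 5.57 to 6.97 elsewhere, and hebp1.L, a heme-binding protein, with 2.74 and 2.39 against 5.56 to 6.03. The lipoxygenase gene alox12b.S and the stress response transcription factor gene atf4-iii were lower in them as well.

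Pool 3 alone set apart acod1lb.L, whose name places it with the aconitate decarboxylases, at 9.64 against 3.23 to 4.16 in the other pools. It also set apart phyhdlb.L (10.20 against 6.01 to 7.98), the galectin gene lgals4.2.L (7.49 against 2.53 to 5.21), the glutathione transferase gene gstt1.L (8.39 against 4.39 to 6.29) and the tropomyosin gene tpm1.L (7.87 against 4.07 to 5.36). The cysteine dioxygenase gene cdo1.S went the other way, with 5.46 in pool 3 against 8.60 to 9.01. Its homeolog cdo1.L, named after its values were seen, ranged over 0.29 around 9.73. Without pool 3 the means of acod1lb.L (3.73) and lgals4.2.L (3.88) were below the threshold.

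**Figure D3:**
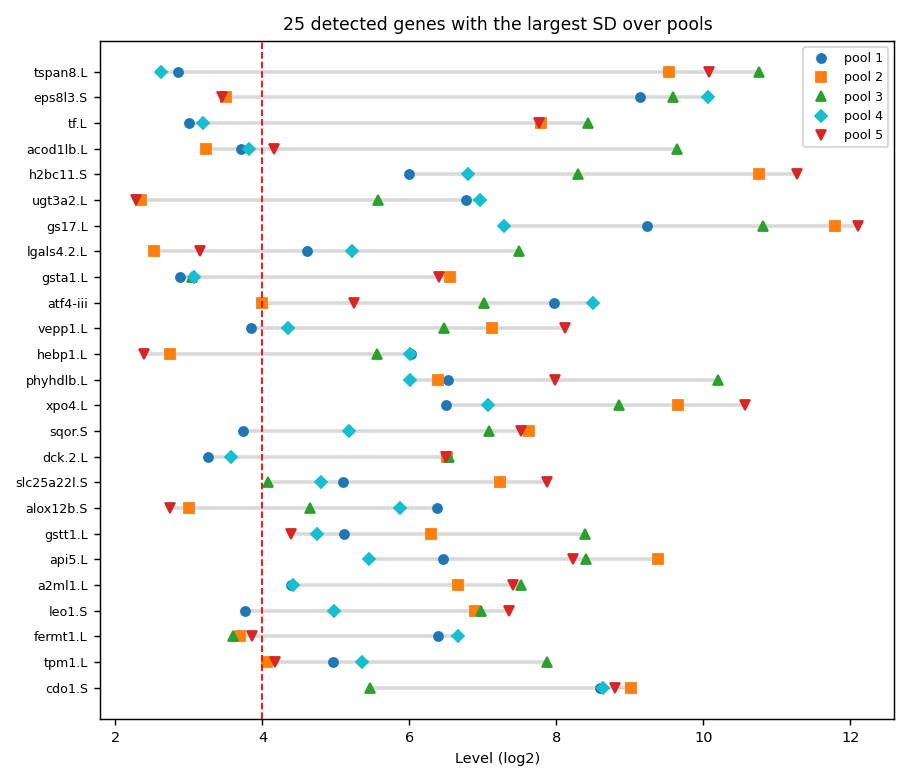
Levels (horizontal axis, log2) of the 25 detected genes with the largest SD over the 5 pools, largest at the top, with 1 symbol per pool and the threshold at 4 as a dashed line. For tspan8.L, tf.L and dck.2.L pools 1 and 4 lie together below 4; for eps8l3.S, ugt3a2.L and hebp1.L pools 2 and 5 do; for acod1lb.L pool 3 lies alone at 9.64.

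Both members of 1016 homeolog pairs were measured: both were detected in 715, only the .L copy in 91, only the .S copy in 78, and neither in 132. In 42 pairs with both detected, at least 1 copy ranged over more than 2. In 26 of these the steadier copy ranged over more than 1, among them 4 where both copies ranged over more than 2. In the other 16 it ranged over at most 1. Probe sets of the .L and .S copies may read some of the same RNA, which was not tested. Over all detected genes 3.72% ranged over more than 2 and 27.2% over more than 1.

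At the steady end, among 2463 genes with a mean above 8, the 10 with the smallest SD were ptma.L (prothymosin, 10.98 ± 0.02), cirbp.S, the mitochondrial cyclophilin ppif.L (9.53 ± 0.03), the heparan sulfate enzyme ndst1.S (9.12 ± 0.03), the retinoic acid receptor rarg.S (10.94 ± 0.03), the ubiquitin ligase cbl.L (9.33 ± 0.03), the RNA helicase ddx5.S (12.45 ± 0.04), cirbp.L, the nuclear pore gene nup50.S (10.65 ± 0.04) and hspa8.L (13.99 ± 0.04). Each varied by under 0.1 from the lowest to the highest pool.

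Of 9 genes often used as references in frog PCR, all were detected, and their spread differed widely. The SD was 0.11 for eef1a1.S, 0.14 for actb.L, 0.14 for the ornithine decarboxylase gene odc1.L (13.13) and 0.13 for gapdh.L (7.35). It was 0.24 for eef1a1o.L (10.24), 0.39 for the ribosomal protein gene rpl8.S (12.35), 0.52 for sub1.S (7.83) and 0.59 for eef1a1o.S. The histone H4 gene h4c4.L was the least steady of them, with 8.42, 9.87, 7.91, 8.17 and 9.64 in pools 1 to 5 and an SD of 0.89. It was highest in pools 2 and 5, as h2bc11.S was.

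Tissue and pathway genes were read from 33 lists with 542 measured genes, homeologs counted apart. Detected were 363 of them, while 73.1% of all genes named by 1 symbol were, and of the 179 that were not, 134 had a mean under 3. Each count by list below is to be read beside that 73.1%. By list, detection ran from every measured gene for the cement and hatching gland (8 of 8) and for ventral and BMP genes (21 of 21) to 1 of 15 for the late lens and retina and 1 of 16 for late liver, pancreas and gut. No hatching enzyme gene was among the 8 of the cement and hatching gland list.

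**Figure D4:**
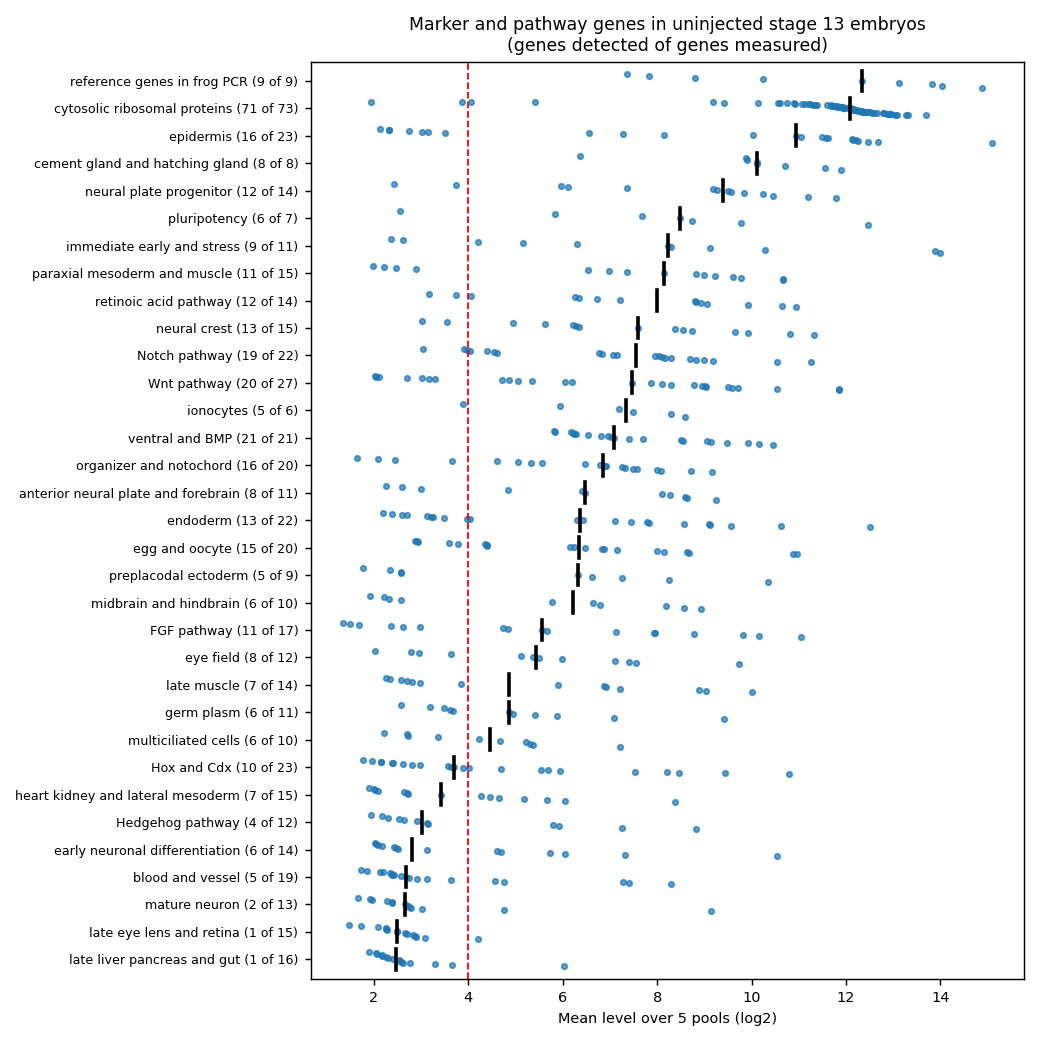
Mean level over the 5 pools (horizontal axis, log2) of every measured gene (points) of each of the 33 lists (rows), with list medians as black bars and the threshold at 4 as a dashed line; the row names give the genes detected of those measured. Rows are ordered by median, from reference, ribosomal and epidermal genes at the top to mature neuron, late eye and late gut genes, whose medians lie below 3, at the bottom.

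In the eye field list 8 of 12 genes were detected (66.7%, against 73.1% of all genes). The paired-box factor pax6.L was the brightest at 9.72 ± 0.40 (its 6 probe sets included 1 below the threshold), followed by tbx3.S at 7.55 ± 0.47, six3.L at 7.41 ± 0.14, rax.L at 7.1 ± 0.72 and tbx2.L at 5.99 ± 0.34, all genes of transcription factors active in the eye field. The rax.L readings were 6.93, 6.73, 8.38, 6.68 and 6.78 in pools 1 to 5, so pool 3 stood above the other pools by more than 1. Its homeolog rax.S, named after its values were seen, was also highest in pool 3 (5.68, others 4.72 to 5.14). The later eye factor genes six6.L (2.78) and six6.S (2.02) and the retinal progenitor gene nr2e1.S (2.96) were near background. The readings of six6.L were 2.69, 2.01, 3.95, 3.3 and 1.95, so none reached 4.

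Anterior neural plate and forebrain genes were detected in 8 of 11 cases, or 72.7%, near the 73.1% of all genes. The head homeobox gene otx1.L was steady (9.24 ± 0.10). For otx2.L (8.60 ± 0.26) the SD was near the median of detected probe sets, 0.294. Its homeolog otx2.S, named after its values were seen, read 6.26, 6.53, 6.85, 5.82 and 6.90 in pools 1 to 5, lowest in pools 4 and 1. The homeobox repressor hesx1.L was not steady, with 7.76, 9.19, 9.65, 7.37 and 9.14 in pools 1 to 5. Its homeolog hesx1.S, with 5.72, 7.15, 7.1, 4.88 and 7.22, was low in the same pools 1 and 4. The zinc finger gene fezf2.L (8.10 ± 0.65) and the secreted Wnt inhibitor gene sfrp1.L (8.28 ± 0.57) were also lowest or next to lowest in pools 1 and 4. Pool 4 was the lowest pool for 7 of the 8 detected members, and for 16.5% of all detected genes. Near background were emx2.L (2.99) and barhl2.S (2.59), and the ventral forebrain gene nkx2-1.L read 2.26.

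In the midbrain and hindbrain list 6 of 10 were detected. The Iroquois genes irx2.L (8.92 ± 0.32), irx1.L (8.58 ± 0.48) and irx3.L (6.65 ± 0.32), the homeobox cofactor gene meis3.S (8.2 ± 0.28) and the midbrain-hindbrain gene pax2.L (6.79 ± 0.62, with 6 of 8 probe sets detected) were above the threshold. The midbrain boundary genes en2.S (2.32) and wnt1.L (2.21) and the hindbrain segment gene egr2.L (1.91) were not, and each stayed below 3 in every pool.

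Of the Hox and Cdx genes, which pattern the trunk and tail, 10 of 23 were detected. They were cdx1.S (10.78 ± 0.49), cdx4.L (9.43 ± 0.64), hoxc6.S (8.47 ± 0.54), hoxa7.L (8.2 ± 0.54) and hoxc8.S (7.53 ± 0.37) at the bright end. The posterior genes hoxc12.L (1.95) and hoxa13.S (1.77) and the more anterior hoxb5.S (2.15) were at the floor. The hoxc6.S readings were 8.67, 8.67, 7.51, 8.72 and 8.78 in pools 1 to 5. Pool 3 was lowest for 6 of the 10 detected members and highest for none, while over all 5319 detected genes pool 3 was lowest in 25.3% and highest in 23.1%.

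Neural plate progenitor genes were detected in 12 of 14 cases and had a median of 9.53 over those detected. The brightest were SoxC factor sox11.S (11.80 ± 0.34), sox15.L (11.20 ± 0.33), the neural SoxB1 factor sox3.S (10.45 ± 0.20), the replication licensing inhibitor gmnn.S (10.24 ± 0.14) and the zinc finger factor zic2.S (9.84 ± 0.34). The pan-neural factor sox2.L, named after its values were seen, averaged 9.51 ± 0.39. The homeolog sox3.L was the least steady (6.12 ± 0.63).

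Few genes of neuronal differentiation were detected. In the early list 6 of 14 genes were detected: the Notch ligand gene dll1.L (10.55 ± 0.27), the tubulin gene tubb2b.S (7.33 ± 0.72), the intermediate filament gene prph.L (6.05 ± 1.2), the RNA-binding gene elavl3.L (5.74 ± 0.28) and the proneural gene neurog2.S (4.69 ± 0.23, with 1 of 2 probe sets detected) lead it. The homeologs prph.S (2.46) and neurog2.L (2.18), named after their values were seen, were not detected. The tubb2b.S readings were 6.85, 6.87, 8.58, 7.11 and 7.23, with pool 3 apart. The later differentiation factors neurod1.L (2.05) and neurod4.L (2.02) and the kinase gene pak3.L (2.09) were at the floor. Of 13 genes of mature neurons only syt1.L (9.13 ± 0.24) and snap25.L (4.74 ± 0.61), both of synaptic vesicle release, were detected, while syn1.L (1.95), gap43.S (1.91) and gap43.L (1.65) were among the lowest readings.

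Neural crest genes were detected in 13 of 15 cases. The border gene pax3.L (11.33 ± 0.21, with 3 of 4 probe sets detected), tfap2a.L (10.82 ± 0.35), msx1.L (9.92 ± 0.52), snai1.S (9.65 ± 0.42) and zeb2.S (8.73 ± 0.33) were the brightest, and foxd3.L was the least steady (6.22 ± 0.58). The specifiers sox9.S (7.59 ± 0.44) and snai2.L (6.35 ± 0.22), named after their values were seen, were detected too. The later crest factor sox10.L read 3.01 and snai2.S 3.55, below the threshold. In the preplacodal list, for the ectoderm that forms sense organs, 5 of 9 genes passed, led by dlx3.S (10.34 ± 0.25) and dlx3.L (8.24 ± 0.18), while eya1.L (2.33), tbx1.L (2.57) and the lens gene foxe3.L (1.76) did not.

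All 8 measured genes of the cement and hatching gland list were detected, and no hatching enzyme gene was among them. Pool 3 was the highest for 6 of the 8, and for 23.1% of all detected genes. The secreted cement gland protein gene agr2.L read 9.79, 9.61, 11.91, 9.93 and 9.32 in pools 1 to 5, so pool 3 was about 2 above the others. Its homeolog agr2.S, named after its values were seen, read 9.35, 9.49, 11.35, 9.70 and 9.62. The related ag1.S read 11.48, 10.87, 12.73, 11.41 and 11.30 and ag1.L 11.96, 11.43, 12.52, 11.93 and 11.59. These 4 secretory genes were thus highest in the same pool. The nucleotidase gene cant1.L (10.71 ± 0.16) and the homeobox gene crx.L (10.12 ± 0.26) did not follow, each being highest in pool 5. The homeolog crx.S (10.24 in pool 3) and the gene pitx1.L (7.58 in pool 3), named after their values were seen, were highest in pool 3 too.

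Epidermal genes were detected in 16 of 23 cases (69.6%, against 73.1% of all genes), and those detected had a median of 11.61. After krt70.S came the keratins krt8.1.S (12.67 ± 0.09), krt12.5.S (12.46 ± 0.78), krt18.1.L (12.26 ± 0.62) and krt12.4.L (12.21 ± 0.39). The krt12.5.S readings were 11.34, 12.97, 12.90, 11.95 and 13.14, with pools 1 and 4 lowest, and krt19.S read 5.82, 5.92, 8.57, 6.37 and 6.15, with pool 3 apart. Pool 1 was the lowest for 10 of the 16, and for 21.8% of all detected genes. The larval mucus lectin gene itln1.L, named after its values were seen, averaged 12.14 ± 0.34. The keratins krt57.L, krt51.L and krt55.L were at 2.12 to 2.31.

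Of 10 genes of multiciliated cells 6 were detected, from the cyclin-like regulator ccno.L (7.21 ± 0.42) to tekt2.S (5.37 ± 0.61), ccdc78.S (5.30 ± 0.48), the ciliary transcription factor rfx2.S (5.21 ± 0.08) and the dynein gene dnai1.L (4.68 ± 0.32). The dynein heavy chain gene dnah9.S (2.2) and myb.S (2.72) were near background. Of 6 ionocyte genes, for cells that pump ions through the skin, 5 were detected. The proton pump gene atp6v1b1.L (3.90) was not. Their master regulator foxi1.L read 8.75, 8.32, 6.97, 9.02 and 8.43, and ubp1.L, another gene of the list, read 6.64, 6.04, 4.53, 6.51 and 5.96. Pool 3 was lowest for both, and for 4 of the 5 detected members, against 25.3% of all detected genes. The exception was atp6v0d1.L, which was highest in pool 3 (7.53).

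Among organizer and notochord genes 16 of 20 were detected. The T-box gene tbxt.S (9.16 ± 0.55), the BMP-like ligand admp.S (8.72 ± 0.29), the homeobox gene lhx1.L (8.09 ± 0.38), foxa4.S (7.99 ± 0.41) and foxa4.L (7.58 ± 0.50) were the brightest. The Wnt inhibitor gene dkk1.S was the least steady, with 5.26, 5.82, 5.62, 4.51 and 6.65. The BMP antagonist nog.L (6.47 ± 0.54), the head inducer cer1.S (7.49 ± 0.68) and the organizer homeobox gene gsc.L (5.32 ± 0.73), named after their values were seen, were detected as well. The genes sia1.L (2.08) and nodal3.1.L (1.63), known from the blastula stage of the organizer region, were at the floor, as was hhex.L (2.44).

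All 21 ventral and BMP genes were detected. The GATA factor gata2.L (10.45 ± 0.42), the homeobox repressors ventx2.1.S (10.17 ± 0.80) and ventx2.1.L (9.14 ± 0.22), msx1.L and the ligand gene bmp7.1.L (9.48 ± 0.39) were the brightest, and the ligand bmp4.S, named after its values were seen, averaged 7.40 ± 0.15. The ventx2.1.S readings of 10.54, 10.74, 8.76, 10.30 and 10.49 had pool 3 low. So did those of evx1.L, a homeobox gene of the posterior and ventral mesoderm, with 6.72, 6.22, 3.80, 6.01 and 6.42. The ligand gene bmp7.1.L had pool 3 high instead (10.15, others 9.16 to 9.44). Pool 3 was the lowest for 11 of the 21 and the highest for 7, and over all detected genes for 25.3% and 23.1%.

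In the paraxial mesoderm list 11 of 15 genes passed, or 73.3%, near the 73.1% of all genes. The protocadherin gene pcdh8.2.L (10.67 ± 0.41), the T-box gene tbx6.L (10.66 ± 0.58), the myogenic factors myf5.L (9.78 ± 0.66) and myod1.S (9.22 ± 0.19) and the presomitic regulator msgn1.L (9.60 ± 0.62) led it. The msgn1.L readings were 10.04, 9.78, 8.50, 9.82 and 9.87, and those of tbx6.L 11.20, 10.32, 9.82, 11.12 and 10.83, with pool 3 the lowest of both. The myogenic factor of later fibres, myf6.L (1.98), and the actinin genes actn2.S (2.46) and actn2.L (2.22) were at the floor.

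Genes of contracting muscle were split. Of 14, 7 were detected, namely the myosin light chains myl1.L (10.02 ± 0.64, with 2 of 3 probe sets detected), mylpf.L (9.03 ± 1.09) and myl1.S (8.90 ± 1.02), the fast skeletal troponins tnnt3.S (7.22 ± 0.75), tnni2.S (6.87 ± 0.61, named after its values were seen) and tnnc2.S (5.89 ± 1.27) and the creatine kinase ckm.L (6.92 ± 0.18). The mylpf.L readings were 9.03, 7.88, 10.64, 9.41 and 8.18, those of myl1.S 8.90, 7.72, 10.44, 9.12 and 8.29, and those of tnnc2.S 5.74, 4.46, 7.76, 6.42 and 5.08. In all 3 genes pool 3 was highest, pool 2 lowest and pool 5 next to lowest. Pool 3 was the highest for 6 of the 7, and for 23.1% of all detected genes. The exception was ckm.L, which was lowest in pool 3. The cardiac and slow troponins tnnc1.L (2.35), tnnc1.S (2.26) and tnni3.L (2.57) were at the floor.

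The heart, kidney and lateral mesoderm list had 7 of 15 detected, led by gata4.L (8.39 ± 0.55), hand1.L (6.04 ± 0.63), foxc2.S (5.67 ± 0.21), the heart field gene nkx2-5.S (5.18 ± 0.55) and foxf1.L (4.65 ± 0.45). The heart genes tbx5.L (2.03) and tbx20.L (1.89) were not. Of 19 blood and vessel genes 5 passed. The alpha globin gene hba-l5.L averaged 8.29 ± 0.62 and hba3.L 4.75 ± 0.74, while hba2.L was at 1.85 and the blood factor runx1.L at 2.13. The myeloid factor cebpa.L read 7.09, 7.06, 9.14, 6.63 and 7.14 and its homeolog cebpa.S 4.89, 3.87, 6.43, 3.93 and 3.70. Both had pool 3 highest. The erythroid and endothelial cofactor gene lmo2.S read 7.53, 6.06, 8.12, 7.84 and 6.83.

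Endoderm genes were detected in 13 of 22 cases. The protease inhibitor gene a2m.S (12.50 ± 0.35), gata6.L (10.63 ± 0.20), the T-box factor vegt.L (9.56 ± 0.83), the HMG factor sox17b.1.S (9.12 ± 0.36) and darmin.L (9.09 ± 0.77) were the brightest. The vegt.L readings were 9.59, 10.05, 8.26, 9.42 and 10.47 and those of vegt.S 6.17, 7.88, 4.47, 5.55 and 7.50. In both copies pool 3 was lowest and pools 2 and 5 were highest. The early mesendoderm gene mixer.L (2.60) and the later gut and liver regulator hnf4a.S (2.39) were near background.

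Genes linked to the egg were measured in 2 lists, and the arrays do not tell RNA left from the egg from RNA made by the embryo. Germ plasm genes, whose RNA the egg supplies to future germ cells, were detected in 6 of 11 cases. They included the RNA helicases ddx4.L (9.41 ± 0.30) and ddx25.L (7.08 ± 0.66), pgat.L (5.89 ± 0.53), tdrd6.L (5.42 ± 0.63) and dazl.L (4.94 ± 0.93), while nanos1.L (2.58) and grip2.L (3.2) were not. The ddx25.L readings were 7.55, 6.20, 7.07, 7.86 and 6.72, and those of dazl.L 5.24, 3.57, 5.61, 5.84 and 4.45. Pool 4 was the highest for 5 of the 6, and for 16.3% of all detected genes. Pools 2 and 5 were the lowest for 3 each, and over all detected genes for 20.2% and 16.2%. Of 20 genes on the egg and oocyte list 15 passed, and the share detected was 73.1% over all genes. The mitotic cyclins ccnb1.2.S (10.95 ± 0.40) and ccnb1.2.L (10.88 ± 0.32), which are not particular to the egg, read highest. After them came the oocyte linker histone h1-8.S (8.67 ± 0.40). The list members wnt11b.L (8.62 ± 0.34) and gdf3.S (8.15 ± 0.58) followed, and whether their RNA is particular to the egg was not tested. The oocyte genes btg4.L (2.94) and btg4.S (2.88) were not detected. Of 7 pluripotency genes 6 passed, and the frog POU factors pou5f3.1.L and pou5f3.2.L averaged 12.47 ± 0.14 and 8.74 ± 0.81, while pou5f3.3.L, known from the oocyte, was at 2.56.

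Genes of organs that form later were near background with single exceptions. In the lens and retina list only crygbl.4.S, a gamma crystallin, passed, at 4.21 ± 0.60, with 3.36, 4.28, 5.01, 4.02 and 4.38 in pools 1 to 5. The other of its 2 probe sets read 2.17, at the floor, so its detection rests on 1 probe set. The crystallins cryaa.S (1.72), crybb2.L (2.09) and crygdl.30.L (1.48) were at the floor. In the liver, pancreas and gut list only tf.L passed, in pools 2, 3 and 5, and the insulin genes ins.L (2.07) and ins.S (1.90) and the fibrinogen gene fgg.L (2.04) were at the floor.

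Among signalling pathways, the FGF list had 11 of 17 genes detected and the tightest list mean, which moved by 0.132 between pools. Its target etv4.L averaged 11.05 ± 0.13, its receptors fgfr4.S 10.17 ± 0.21, fgfr1.L 9.81 ± 0.47 and fgfr4.L 8.78 ± 0.33, and the ligand fgf8.L 7.95 ± 0.06 (2 of its 3 probe sets detected). The ligands fgf4.L (1.35), fgf4.S (1.49) and fgf9.S (1.68) were at the floor. The Wnt list had 20 of 27 detected, or 74.1%, near the 73.1% of all genes. Its transducer beta-catenin gave ctnnb1.L 11.86 ± 0.27 and ctnnb1.S 11.85 ± 0.29, its receptors fzd7.L 10.55 ± 0.20 and fzd10.S 9.58 ± 0.42, and its feedback target axin2.S 9.70 ± 0.54. Over all detected genes pool 3 was the lowest in 25.3%, and in the Wnt list it was the lowest for 9 of the 20. Among these axin2.S read 9.76, 10.03, 8.79, 9.79 and 10.16, and the ligand wnt8a.L, named after its values were seen, read 8.83, 8.34, 7.36, 8.80 and 8.14. The coreceptor gene lrp6.L, with 3.2, 4.98, 4.87, 4.18 and 6.30, had 1 of 2 probe sets detected. The lowest members were gsk3b.L (2.01), axin1.L (2.04) and wnt7b.L (2.11). Here and in the other lists, a probe set near background need not mean that the RNA was absent.

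The Hedgehog list had the fewest signalling genes detected, 4 of 12, which were the transducer smo.L (8.81 ± 0.08), the ligand shh.L (7.25 ± 0.67) and the transcription factors gli2.S (5.92 ± 0.32) and gli3.L (5.78 ± 0.25). The receptor and target ptch1.S (1.93), gli1.S (2.30) and the ligand ihh.S (2.17) were near background. Of 14 retinoic acid genes 12 passed, with the receptor rarg.S, the synthesis genes rdh10.L (10.65 ± 0.29) and aldh1a2.L (8.92 ± 0.22), the reductase dhrs3.L (9.93 ± 0.16) and the degrading enzymes cyp26a1.L (9.06 ± 0.42) and cyp26a1.S. The last read 8.40, 9.86, 8.50, 7.95 and 9.40, highest in pools 2 and 5. Of 22 Notch genes 19 passed, led by the Hes repressors hes4.L (11.26 ± 0.38) and hes4.S (9.18 ± 0.40, with 2 of 5 probe sets detected) and the ligands dll1.L and dlc.L (9.0 ± 0.54). The repressor hes5.3.L stood out in 1 pool, with 4.04, 4.08, 4.06, 3.95 and 5.82.

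Stress and immediate early genes passed in 9 of 11 cases, with hmox1.L at 10.28 ± 0.33, gadd45a.S at 9.12 ± 0.21 and ier2.S at 6.31 ± 0.47. The homeolog hmox1.S (2.36) and jun.L (2.62) were near background. Cytosolic ribosomal protein genes passed in 71 of 73 cases with a median of 12.12. Among them 5 of 71 (7.04%) ranged over more than 1, which is near the share for probe sets of like brightness, 12.1% for means between 10 and 12 and 8.94% above 12. Pool 1 was the lowest for 41 of the 71 and for 21.8% of all detected genes, and the list mean stood at -0.21 there relative to its mean over pools. The gene rps12.S was the least steady (12.51 ± 0.61), with 12.95, 11.92, 12.55, 13.25 and 11.88, and rpl3l.L (1.93) and rps10.L (3.87) were the pair not detected.

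Taking list means over detected members, 18 of the 33 lists moved by over 0.5 between pools. Without pool 3, 9 lists did. The means of late liver, pancreas and gut (5.43) and of late lens and retina (1.65) moved too, but each is 1 detected gene, tf.L and crygbl.4.S. Among lists with more, late muscle moved by 1.93, blood and vessel by 1.18, anterior neural plate and forebrain by 1.17, germ plasm by 1.14, cement gland by 1.12 and ionocytes by 1.1. In pool 3 the late muscle mean was 1.11 above its mean over pools, cement gland 0.84 above, and blood and vessel 0.73 above. Ionocytes stood at -0.66, Hox and Cdx at -0.42 and pluripotency at -0.39 in the same pool. The germ plasm mean stood at 0.37 and 0.64 in pools 1 and 4 and at -0.51 and -0.50 in pools 2 and 5. Pools 1 and 4 did not go the same way in every list: egg and oocyte stood at 0.32 in pool 1 and -0.13 in pool 4, and preplacodal ectoderm at 0.34 and -0.23.

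**Figure D5:**
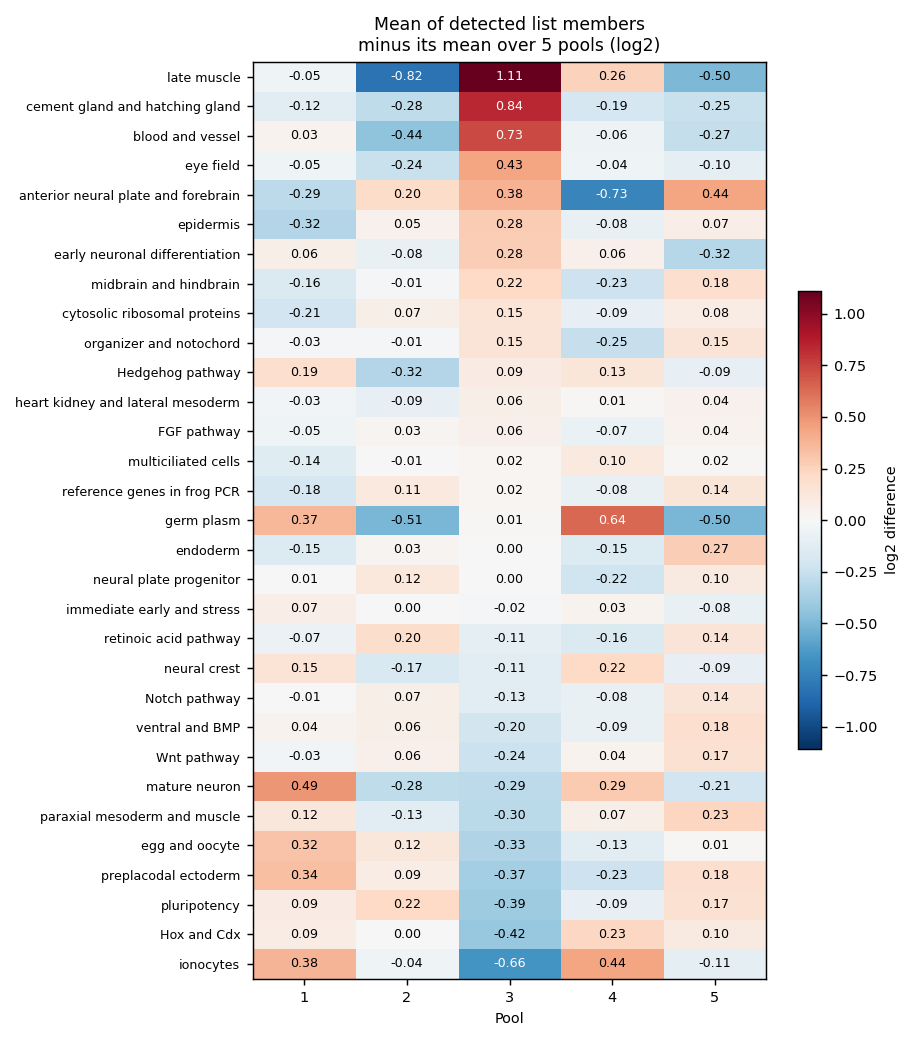
Mean of the detected members of each list in each pool (columns) minus the mean over the 5 pools (log2), as numbers and colours, red above and blue below, with lists (rows) ordered by their value in pool 3; lists with fewer than 2 detected members are left out. Pool 3 ran from 1.11 for late muscle to -0.66 for ionocytes, and the germ plasm row has pools 1 and 4 above and pools 2 and 5 below.

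Of the 363 detected list genes, 22 ranged over more than 2. Pool 3 was set apart in 11 of these, pools 1 and 4 in 4 and pools 2 and 5 in 2. Over all detected genes 198 (3.72%) ranged over more than 2, with pool 3 set apart in 27.3% of them, pools 1 and 4 in 32.8% and pools 2 and 5 in 16.7%. In 4 of the 179 list genes with a mean not above 4, a single pool read over 5. The first 3 are named here after their values were seen. The eye field gene lhx2.L read 5.12 in pool 3, the myeloid peroxidase gene mpo.S 6.56 in pool 3, the germ plasm gene germes.L 5.73 in pool 4, and the ionocyte proton pump gene atp6v1b1.L 5.30 in pool 4. Without pool 5 the mean of atp6v1b1.L was 4.23, above the threshold.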

How the data were processed

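Single-colour Affymetrix arrays were hybridised with RNA of whole embryos. Each deposited array holds log2 values of 15611 probe sets. Per the submitters' processing notes the authors used GCRMA. Neither its version nor which arrays entered 1 run is stated there. Values were taken as deposited, with no further scaling, and the array's 120 control probe sets entered no count. Arrays have no read depth, and their number limits the precision.

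Symbols came from the platform annotation, with 2 updated through a gene table: 9304 probe sets had 1 symbol, 195 several and 5992 none, and only the first kind is named. A gene was represented by its probe set with the highest mean. Mean, SD and range over pools were computed with pandas 2.3.3 and numpy 2.4.6 in Python 3.11.15, and the counting was tested on simulated data. There is 1 group, so no test was made and no p-value is given. Named were the 25 genes with the highest mean, the 25 detected genes with the largest SD, the 10 steadiest above 8, the reference genes, and in each list up to 5 brightest detected members, up to 3 lowest undetected ones and the least steady one; genes outside this rule are marked as named after their values were seen. The members and the lists were chosen with earlier results of these data known. Alternatives were thresholds of 3 and 5, quantile normalization, leaving out each pool, and, added after seeing the data, averaging pools 1 with 4 and 2 with 5. The other 15 arrays were not used, apart from a check of the tracer probe sets.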

Additional observations from a re-analysis of the deposited data

Results flagged for a closer look

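In a group of 5 pools, a pool was singled out where its gap to the nearest other pool was over 0.71 of the whole range. Of 272 gene levels, list means and array measures examined, 22 met this, 16 of them in pool 3, 4 in pool 5, 1 in pool 1 and 1 in pool 4. Chance gives about 1 in 20 for each examined value, and the values are not independent, since genes share their pools. Many of the genes examined were also picked for their spread or after their values were seen. The count of 22 in 272 therefore cannot be weighed against that rate.

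Pool 3 stood alone at the top for acod1lb.L (9.64), agr2.L (11.91), agr2.S (11.35), bmp7.1.L (10.15), cebpa.L (9.14), krt19.S (8.57), mpo.S (6.56), rax.L (8.38) and tubb2b.S (8.58), and for the mean of the cement gland and hatching gland list (10.90). It stood alone at the bottom for cdo1.S (5.46), evx1.L (3.80), fzd10.S (8.85), hoxc6.S (7.51), msgn1.L (8.50) and ventx2.1.S (8.76). Pool 5 was apart at the top for dnai1.L (5.24), hes5.3.L (5.82) and prmt1.S (13.94) and at the bottom for cirbp.L (14.19), whose whole range was under 0.1. Pool 1 was apart at the top for dlx5.L (7.01), and pool 4 for germes.L (5.73).

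In the arrays not used here, the green fluorescent protein tracer was seen where the labels say uninjected. The probe sets AF292560 and M62653 read 14.84 and 14.46 in uninjected replicate 6, 14.77 and 14.35 in replicate 7, 14.29 and 13.84 in replicate 8, and 14.71 and 14.51 in replicate 9. In replicate 10 they read 2.77 and 2.89, and in pools 1 to 5 none passed 3.56.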

How the results depend on the processing

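No paired analysis was possible because the results describe 1 group and come from no test. With the threshold at 3 or 5 in place of 4, the number of detected probe sets was 11579 or 8715, and that of detected list genes 408 or 330. Leaving out each pool gave 9969 to 9997 detected probe sets, 362 to 366 detected list genes, 1940 to 2555 probe sets with a range over 1, a median SD of 0.265 to 0.299, and 9 to 18 lists whose mean moved by over 0.5. The lowest of the last 3 ranges came without pool 3. With pools 1 and 4 and pools 2 and 5 averaged, a choice made after seeing the data, 1793 probe sets ranged over more than 1 against 2902, and 13 lists moved by over 0.5 against 18. Fewer or averaged pools can only narrow the range of a probe set, so the direction of the fall in probe sets was fixed. Of the 25 genes with the largest SD, 11 were shared when ranked by median absolute deviation and 19 to 23 when a pool was left out. The arrays as deposited already had near-equal medians, from 5.65 in pool 2 to 5.74 in pool 1, so quantile normalization could change little. It shifted the level of the 298 genes named by rule by at most 0.0291. Without a pool the mean of 6 of them crossed 4: acod1lb.L and lgals4.2.L fell below it without pool 3 and gsta1.L without pool 2 or 5, while atp6v1b1.L, hes5.2.L and lfng.S passed it.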
